A study of Homo sapiens with 4 samples.

Results

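The genes described here are 41 genes of glycolysis and of the hypoxia response, chosen by name from a list of known members of these pathways. The choice was made with earlier results of these data known. Of them, 37 had a named probe set among the 17687 named genes of the arrays, and 4 (PFKFB4, SLC16A3, CA9 and LOXL2) had none. The 21 listed glycolysis members comprise the glucose transporter, a lactate exporter, the enzymes from hexokinase to lactate dehydrogenase and 3 kinases that set the flux through the pathway or into mitochondria, and 19 of them were measured. The other 20 are hypoxia-inducible genes with other roles and the genes of the oxygen-regulated transcription factors themselves, and 18 of them were measured.

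The series holds 4 Clariom S arrays of RNA from prostate cancer cell lines, 1 for each combination of a line (PC3 or C42B) and a stable construct (miR-410 or the scrambled control miR-CON). Both constructs are pMIR plasmids that carry a GFP reporter, with the precursor of hsa-miR-410 driven by the CMV promoter in the former, and all cells were selected in puromycin and grown to logarithmic phase. PC3 derives from a bone metastasis and lacks androgen receptor signalling, and C42B derives from LNCaP and keeps it. Oxygen was not varied by the labels or the methods, and no hypoxic sample was analysed here, so the values are levels in routine culture. Whether the stable cells were pools or clones was not given in the sources used here. With 1 array for each condition no difference between constructs within a line has an error or a replicate check.

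Labels and contents of the arrays disagreed at 2 points, so every array is called by its title. For the 2 arrays titled PC3, the genotype and description fields name the opposite construct to the title. Among defining markers, 8 of 10 measured LNCaP-lineage genes were lower and 0 were higher on the arrays titled C42B, while 10 of 11 measured PC3 genes were higher and 0 were lower (limma, adjusted p under 0.05). KLK3, which encodes prostate-specific antigen, had log2 levels of 11.04 (miR-CON) and 11.17 (miR-410) in the pair titled PC3 and only 7.18 (miR-CON) and 6.74 (miR-410) in the pair titled C42B. ANXA1, a gene high in PC3 cells, had levels of 3.11, 3.27, 11.10 and 11.19 in the same order. The markers of the lines thus lay on the arrays titled with the other line. PTPRC, a leukocyte gene, was between 3.39 and 4.35 and the liver gene ALB between 3.78 and 4.33, both under the medians of all named genes, which were 6.54 to 6.58. The other 2 measured markers of unrelated cells were the endothelial gene PECAM1, at 4.26 to 5.31 and called higher under the C42B titles, and the fibroblast gene COL1A1, at 7.03 to 7.63. Pearson's r across probe sets was 0.990 and 0.980 within the pairs titled PC3 and C42B, and 0.881 to 0.886 between them.

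Glycolysis breaks glucose down to pyruvate in the cytosol, and lactate dehydrogenase can then reduce pyruvate to lactate, a route that many tumour cells use even in the presence of oxygen. In hypoxia, prolyl hydroxylases of the EGLN family can no longer mark the HIF alpha subunits for destruction by the VHL ubiquitin ligase, and the stabilised factors bind a short DNA core, ACGTG or GCGTG, near their target genes. Those targets include most enzymes of glycolysis, angiogenic factors, and enzymes that modify and cross-link collagen. HIF-1 alpha protein is known to be raised in many prostate cancers.

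The mature product studied from the precursor in the expression construct is hsa-miR-410-3p, shown because its precursor separates the constructs by design. It lies on chr14:101065961-101065981 (GRCh38.p14, plus strand, RefSeq), and capitals mark the seed, bases 2 to 8.

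hsa-miR-410-3p: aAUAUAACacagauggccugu

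The HIF core in the promoters of members was looked up in RefSeq windows (GRCh38.p14) that run from 250 bases before to 50 bases after each annotated transcript start. Windows were held for 37 of the 41 genes, 69 windows in all, and BNIP3L, VEGFA, NDRG1 and LOXL2 had none. On either strand, ACGTG was present in 27 of the 69 windows (39.1%), and in 23.0% of the 20090 windows of genes named on the arrays. ACGTG or GCGTG stood in 48 windows (69.6%), against 54.8% of those 20090. The E-box CACGTG, which contains ACGTG on both strands and is also read by other factors, stood in 8 windows (11.6%), against 8.21%. By genes, 13 of 21 glycolysis members and 8 of 16 other hypoxia members with a window held ACGTG. Of the 14250 genes named on the arrays with a window, 28.6% did. Either form of the core was held by 91.9% of the members and 62.5% of those 14250 genes. A gene was counted if any of its windows held the core, so more windows gave more places for a match. HK1 and PFKM had 7 windows each, and the number of windows per gene was not matched. The 3 members with neither form were PGAM1, EGLN3 and P4HA2. A match is a description of these letters and not a binding site.

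Stretches around ACGTG are shown for 4 of the members with a higher value of at least 1.5-fold on the array titled PC3 miR-410 (LOX, PLOD2, P4HA1 and ALDOC), and for 3 members that were lower on the arrays titled C42B (GPI, BNIP3 and EGLN1). Each is written 5′ to 3′ on the gene's strand. The marked copies of ACGTG lie upstream of the annotated transcript start, which the end of the EGLN1 stretch passes. Capitals mark ACGTG or its reverse complement CACGT, and the form GCGTG is not marked. EPAS1, also past 1.5-fold on the array titled PC3 miR-410, held no ACGTG in its window. Of the other members called lower on the arrays titled C42B, PFKM and TPI1 held ACGTG but are not shown, and EGLN3 held none.

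LOX, chr5:122078285-122078456, minus strand: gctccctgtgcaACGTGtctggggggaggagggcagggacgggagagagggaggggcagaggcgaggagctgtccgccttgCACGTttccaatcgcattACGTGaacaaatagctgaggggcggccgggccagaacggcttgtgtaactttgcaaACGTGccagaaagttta

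PLOD2, chr3:146161314-146161396, minus strand: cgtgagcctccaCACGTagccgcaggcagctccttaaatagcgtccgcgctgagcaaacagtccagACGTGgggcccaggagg

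P4HA1, chr10:73096936-73096964, minus strand: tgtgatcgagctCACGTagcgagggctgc

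ALDOC, chr17:28577118-28577145, minus strand: aagtgcccggCACGTGgtaaagggattg

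GPI, chr19:34364818-34364846, plus strand: acactgcctgtaACGTGgaaggtgttcga

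BNIP3, chr10:131982040-131982069, minus strand: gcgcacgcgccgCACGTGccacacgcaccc

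EGLN1, chr1:231422284-231422312, minus strand: gggccgtggtgtACGTGcagagcgcgcag

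Counted on either strand, the LOX window held 4 copies of ACGTG, the first 185 bases before the start. The PLOD2 window held 2, the first 200 bases before it. In ALDOC and BNIP3 the marked copies formed the palindrome CACGTG, 240 and 134 bases before the start. The ALDOC window held 3 copies of ACGTG, of which 2 are shown. P4HA1, GPI and EGLN1 each held 1 copy of ACGTG, 86, 162 and 13 bases before the start.

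The question put to the members was how their levels differ between the lines and, within each line, between the constructs. Levels are the authors' RMA values (log2), and 4 values in a row always give the pair titled PC3 before the pair titled C42B, each with miR-CON before miR-410. Of the 37 measured members, 31 were at or above the array's median gene on all 4 arrays (18 of 19 glycolysis members and 13 of 18 others), and none lay below it on all 4. The exception among the glycolysis members was PFKFB3, the kinase that makes the allosteric activator of phosphofructokinase, with levels of 6.33, 6.44, 6.30 and 6.81.

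**Figure D1:**
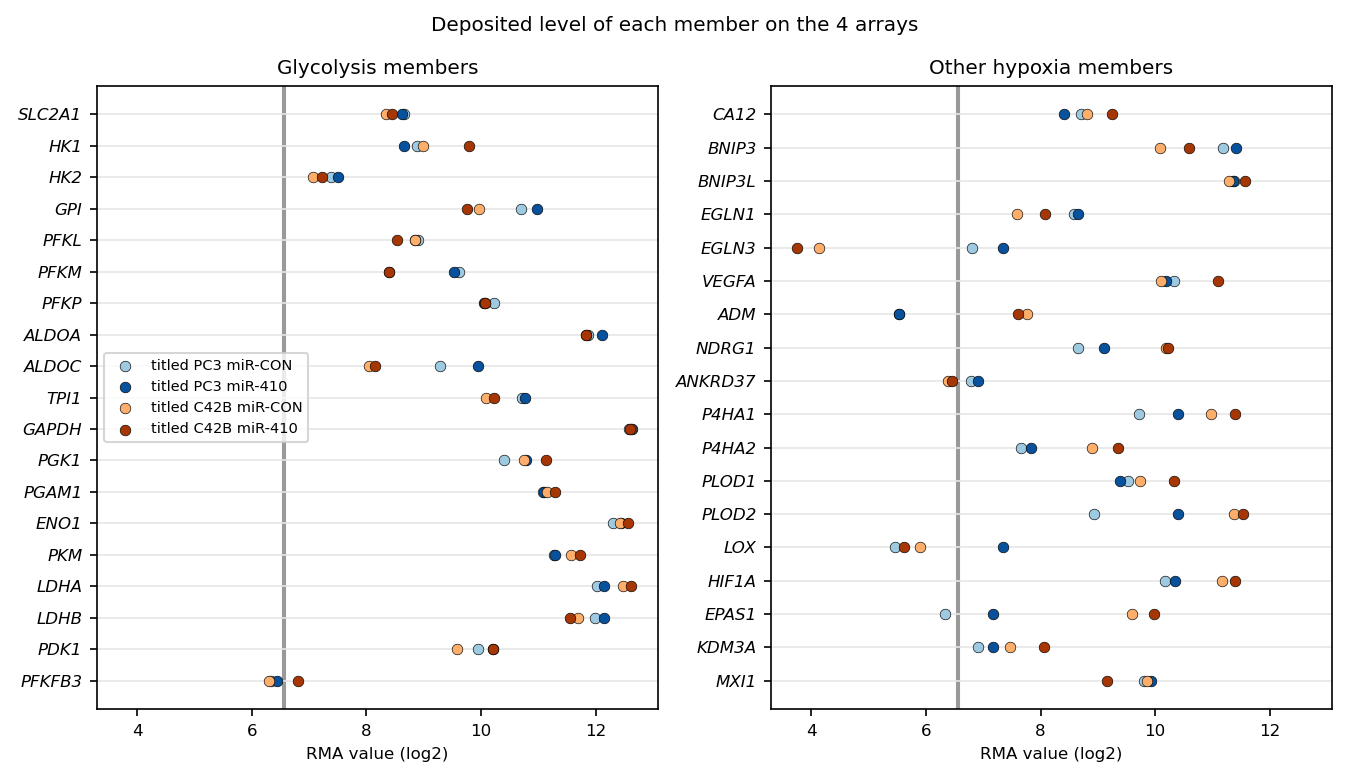
Level of each measured member on each array (x axis, RMA value, log2), glycolysis members at left and other hypoxia members at right, with 1 point per array and a grey band over the 4 array medians (6.54 to 6.58). Most glycolysis members lie close together on all 4 arrays, whereas EGLN3, EPAS1, ADM and PLOD2 spread over several log2 units.

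Between the lines, the glycolysis members and the other hypoxia members differed in their counts. Titled C42B minus titled PC3 was tested with limma over all 17687 named genes, with 2 arrays per line and Benjamini-Hochberg adjustment at 0.05. Of the 37 measured members 7 were higher and 7 lower in the arrays with C42B titles, where 11.7% of all named genes were higher and 14.1% lower. The glycolysis members held 0 higher, 4 lower and 15 that did not pass, and the other hypoxia members held 7 higher, 3 lower and 8 that did not pass. Their median differences were -0.17 and 0.52 (log2), against -0.03 for all named genes, and their median absolute differences 0.29 and 0.88, against 0.35. The 2 arrays of a line differ in construct and are not replicate cultures of a condition. These p-values set the difference between lines against the difference of the 2 arrays within each line, with a prior variance from all genes. A difference between constructs thus enters the error, and the spread between replicate cultures is not measured. In bulk RNA, fewer cells that express a gene and less RNA of it per cell cannot be told apart.

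The values of the lines did not overlap for 14 members that were higher and 12 that were lower in the arrays with C42B titles, and 29.4% and 35.2% of all named genes had no overlap in these directions. Among the glycolysis members 4 were higher and 8 lower without overlap, and among the others 10 were higher and 4 lower.

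**Figure D2:**
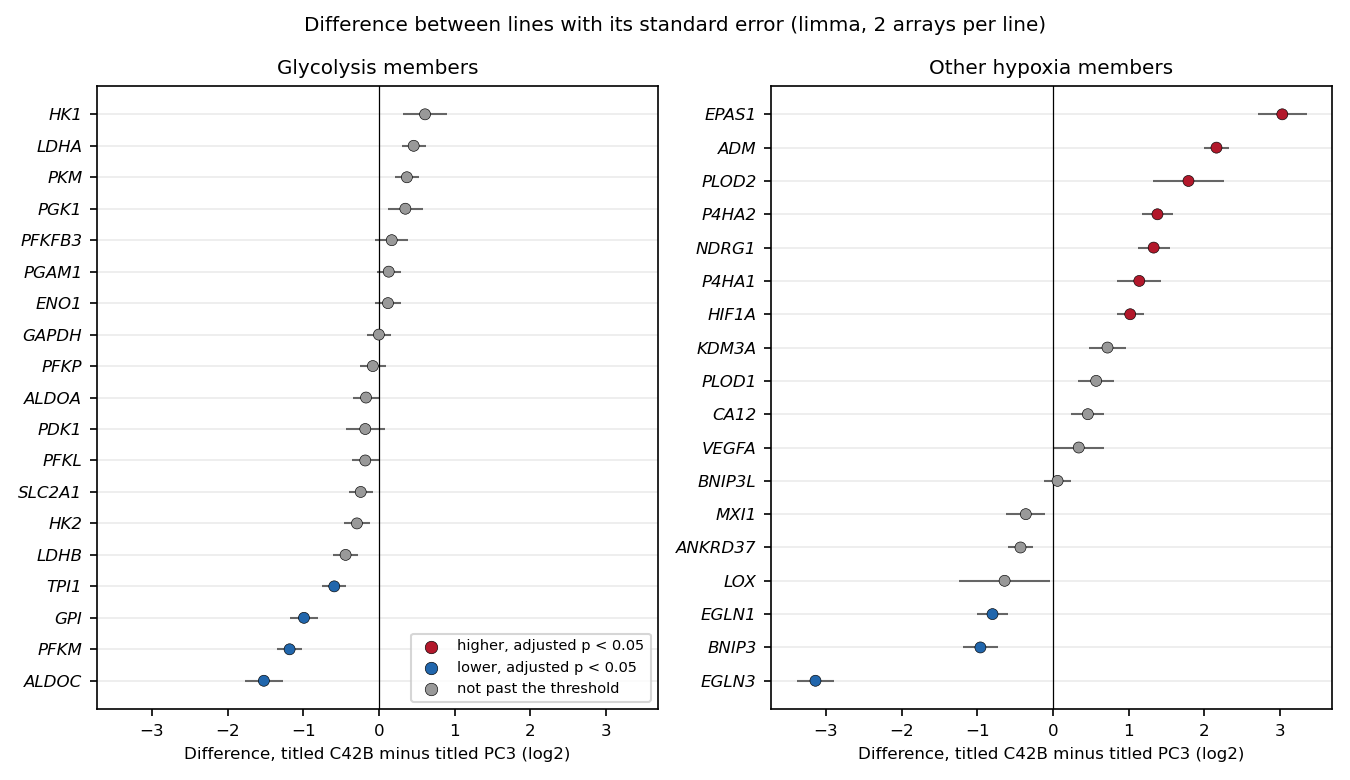
Difference between lines of each member (x axis, titled C42B minus titled PC3, log2, with its standard error from limma, 2 arrays per line), sorted within glycolysis and other hypoxia members and coloured by the test. The 7 members that were higher all stand among the other hypoxia members, from HIF1A (1.02) to EPAS1 (3.03), and ALDOC (-1.52) is the lowest glycolysis member.

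The entry of glucose into the cell and its first phosphorylation showed no called difference between lines. SLC2A1 encodes the transporter GLUT1 and had levels of 8.66, 8.62, 8.34 and 8.45, a difference of -0.24 ± 0.16 (SE; limma, adjusted p = 0.340). Hexokinases trap glucose as its phosphate. HK2, the hypoxia-inducible isoform, had levels of 7.38, 7.51, 7.07 and 7.23 (difference -0.29). HK1, the widely expressed isoform, had levels of 8.89, 8.66, 8.99 and 9.79, and its difference of 0.61 ± 0.29 (adjusted p = 0.197) came with a wide gap between the arrays titled C42B. HK1 passed the test when the array titled C42B miR-CON was left out (1.01, adjusted p = 0.0223).

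The next steps held the glycolysis members that were called, all lower on the arrays titled C42B. GPI, which turns glucose 6-phosphate into fructose 6-phosphate, had levels of 10.70, 10.98, 9.96 and 9.75. The arrays titled C42B were both lower, by 1.98-fold (difference -0.99 ± 0.19, adjusted p = 0.0155). GPI no longer passed without the array titled PC3 miR-410 (difference -0.85, adjusted p = 0.112). Phosphofructokinase commits the sugar to glycolysis, and its muscle-type subunit PFKM had levels of 9.61, 9.53, 8.39 and 8.39. That gene was 2.27-fold lower on the arrays titled C42B (difference -1.18 ± 0.16, adjusted p = 0.00518) and passed in all 12 other settings tried. The liver-type subunit PFKL (8.90, 8.85, 8.85 and 8.53) and the platelet-type subunit PFKP (10.23, 10.05, 10.06 and 10.07) overlapped between the lines.

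Aldolase splits the phosphorylated sugar, and its isoforms were unequal between the lines. ALDOC, the brain-type aldolase, had levels of 9.28, 9.94, 8.04 and 8.14 and was 2.87-fold lower on the arrays titled C42B (difference -1.52 ± 0.25, adjusted p = 0.0104), also in all 12 other settings. ALDOA, the main aldolase of most cells, had levels of 11.87, 12.11, 11.83 and 11.83 (difference -0.17, adjusted p = 0.550). The difference between the isoforms was not itself tested. TPI1, which interconverts the triose phosphates, had levels of 10.71, 10.77, 10.09 and 10.22 and lay at the threshold, 1.5-fold lower (difference -0.59 ± 0.16, adjusted p = 0.0495). It passed in 6 of the 12 other settings. Without the array titled PC3 miR-CON, PC3 miR-410 or C42B miR-CON its adjusted p was 0.213, 0.270 and 0.0940, at differences of -0.62, -0.56 and -0.52.

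Downstream of the trioses no member passed the test. GAPDH, the dehydrogenase often used as a reference gene, had levels of 12.58, 12.64, 12.62 and 12.60 (difference 0.00 ± 0.16), and its sign turned under 2 other scalings, to -0.02 and -0.12. PGK1, which makes the first ATP of the pathway, had levels of 10.40, 10.79, 10.75 and 11.13. PGAM1 (11.08, 11.10, 11.15 and 11.29) and ENO1 (12.30, 12.44, 12.42 and 12.57) encode the mutase and enolase that follow, and their differences were 0.13 and 0.12. PKM, the pyruvate kinase of most tumour cells, had levels of 11.27, 11.29, 11.57 and 11.72, which did not overlap between lines (difference 0.37 ± 0.16, adjusted p = 0.167).

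The lactate dehydrogenase subunits lay on opposite sides of 0. LDHA, the hypoxia-inducible subunit that favours lactate formation, had levels of 12.03, 12.14, 12.48 and 12.61 (difference 0.46 ± 0.16, adjusted p = 0.103). LDHB, the subunit of oxidative tissues, had levels of 11.99, 12.14, 11.70 and 11.56 (difference -0.44 ± 0.17, adjusted p = 0.121). Neither passed in the fit with a common prior variance. With a prior variance that follows intensity, LDHA, LDHB and PKM passed (adjusted p = 0.0107, 0.0199 and 0.0343). PDK1, which holds pyruvate out of the mitochondrial cycle, overlapped between the lines with levels of 9.94, 10.20, 9.58 and 10.20.

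Of the genes of HIF alpha subunits, EPAS1 and HIF1A were higher on the arrays titled C42B, and HIF3A, which is no member, did not pass (5.08, 5.46, 5.09 and 5.24, difference -0.10, adjusted p = 0.775). EPAS1 encodes HIF-2 alpha, known from endothelium and renal cancer, and had levels of 6.33, 7.16, 9.59 and 9.97. This was 8.17-fold higher on the arrays titled C42B (difference 3.03 ± 0.32, adjusted p = 0.00227), and the call held in all 12 other settings. HIF1A, which encodes HIF-1 alpha, had levels of 10.17, 10.35, 11.17 and 11.39, 2.03-fold higher (difference 1.02 ± 0.18, adjusted p = 0.0121). Its differences without the array titled PC3 miR-CON or PC3 miR-410 were 0.93 and 1.11, with adjusted p = 0.0854 and 0.0540. HIF alpha subunits are controlled mainly as proteins, which arrays do not measure.

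Of the oxygen sensors, EGLN3 and EGLN1, themselves hypoxia-inducible, were lower on the arrays titled C42B, and 2 others that are no members, EGLN2 (difference -0.07, adjusted p = 0.792) and HIF1AN (0.56, adjusted p = 0.110), did not pass. EGLN3 encodes prolyl hydroxylase PHD3 and had levels of 6.80, 7.34, 4.13 and 3.74, above the array medians on the arrays titled PC3 and below them on those titled C42B. It was 8.81-fold lower on the latter (difference -3.14 ± 0.25, adjusted p = 0.000955), in all 12 other settings too. EGLN1, which encodes the main sensor PHD2, had levels of 8.59, 8.66, 7.58 and 8.07 (difference -0.80 ± 0.21, 1.74-fold lower, adjusted p = 0.0447). Without the array titled PC3 miR-CON, PC3 miR-410 or C42B miR-CON its differences were -0.84, -0.76 and -0.56, with adjusted p = 0.153, 0.195 and 0.0802. It was also lost with the construct of the genotype field as a term (adjusted p = 0.0561).

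Of the mitophagy receptors, BNIP3 was called and BNIP3L was not. BNIP3, which marks mitochondria for removal, had levels of 11.19, 11.41, 10.09 and 10.59 and was 1.94-fold lower on the arrays titled C42B (difference -0.96 ± 0.23, adjusted p = 0.0311). Without the array titled PC3 miR-CON, PC3 miR-410 or C42B miR-CON its differences were -1.07, -0.85 and -0.71, with adjusted p = 0.0846, 0.160 and 0.0574. Its relative BNIP3L had levels of 11.37, 11.36, 11.29 and 11.57 (difference 0.06), which overlapped.

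Among secreted factors and stress genes, ADM and NDRG1 were higher on the arrays titled C42B. ADM encodes the vasodilator peptide adrenomedullin, and its levels of 5.52, 5.53, 7.76 and 7.61 were under the array medians on the arrays titled PC3 and over them on the others. The difference was 2.16 ± 0.16, or 4.47-fold (adjusted p = 0.000764). NDRG1, a gene induced by hypoxia and, in prostate cells, by androgen, had levels of 8.65, 9.11, 10.19 and 10.23 (difference 1.33 ± 0.21, 2.52-fold, adjusted p = 0.00859). Both calls held in all 12 other settings. The arrays titled C42B, where NDRG1 was higher, were those on which 8 of 10 measured LNCaP-lineage genes were lower. A link of NDRG1 with androgen was not tested. VEGFA, the main angiogenic factor, had levels of 10.33, 10.19, 10.10 and 11.10, which overlapped (difference 0.34 ± 0.34, adjusted p = 0.530). Without the array titled C42B miR-CON its difference was 0.84 and passed (adjusted p = 0.0303), and without C42B miR-410 it was -0.16.

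The enzymes that modify collagen held 3 of the 7 higher calls. P4HA1 and P4HA2 encode catalytic subunits of the collagen prolyl hydroxylase that makes the triple helix stable. P4HA2 had levels of 7.66, 7.83, 8.90 and 9.35 and was 2.61-fold higher on the arrays titled C42B (difference 1.38 ± 0.21, adjusted p = 0.00792), in all 12 other settings too. P4HA1 had levels of 9.71, 10.39, 10.98 and 11.40 and was 2.21-fold higher (difference 1.14 ± 0.29, adjusted p = 0.0362). The P4HA1 differences without the array titled PC3 miR-CON or C42B miR-410 were 0.80 and 0.94, with adjusted p = 0.154 and 0.0924.

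PLOD2 and PLOD1 encode lysyl hydroxylases, whose product is the substrate of collagen cross-links. PLOD2 had levels of 8.94, 10.40, 11.38 and 11.53, with both arrays titled C42B above both titled PC3 (difference 1.79 ± 0.47, 3.46-fold, adjusted p = 0.0412). Its call was lost without the array titled PC3 miR-CON (difference 1.06, adjusted p = 0.0557), C42B miR-CON (1.86, adjusted p = 0.0872) or C42B miR-410 (1.72, adjusted p = 0.0994). PLOD1 had levels of 9.52, 9.39, 9.74 and 10.32 and did not pass (difference 0.57, adjusted p = 0.139), except without the array titled C42B miR-CON (0.86, adjusted p = 0.0275). LOX, the oxidase that starts the cross-links, had levels of 5.45, 7.35, 5.89 and 5.62. A single array, titled PC3 miR-410, stood above the other 3, and the difference between lines of -0.64 ± 0.60 (adjusted p = 0.496) ran from -1.60 without PC3 miR-CON, where it passed (adjusted p = 0.0170), to 0.31 without PC3 miR-410.

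The remaining hypoxia members were not called. KDM3A, a histone demethylase, had levels of 6.91, 7.17, 7.47 and 8.05, without overlap between lines (difference 0.72 ± 0.25, adjusted p = 0.0894). CA12, a membrane carbonic anhydrase that regulates pH, had levels of 8.71, 8.41, 8.81 and 9.24 (difference 0.46). ANKRD37, a compact HIF-1 target, had levels of 6.79, 6.91, 6.39 and 6.45 (difference -0.43), and MXI1, a repressor in the MYC network, had levels of 9.80, 9.93, 9.85 and 9.16 (difference -0.36). Without the array titled C42B miR-CON, KDM3A (1.01, adjusted p = 0.0240) and MXI1 (-0.70, adjusted p = 0.0490) passed.

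Other genes of the pathway, from lists of genes that are no members, were called in both directions, and their counts are set against the 11.7% higher and 14.1% lower of all named genes. Of 11 measured genes of the HIF machinery 2 were higher and 1 lower under the C42B titles (limma, adjusted p under 0.05). CUL2 (difference 1.67, adjusted p = 0.00212) and VHL (0.85, adjusted p = 0.0195) were higher, and RBX1 (-0.93, adjusted p = 0.0128) was lower, 3 subunits of the same ubiquitin ligase. Of 28 measured further hypoxia targets 7 were higher and 2 lower. The transcriptional repressors BHLHE41 (difference 6.09) and BHLHE40 (3.44) and the hormone gene STC1 (3.68) were the highest of those called, and RORA (-1.60) and MIF (-0.77) were the lower ones. Of 28 measured further genes of glycolysis and pyruvate use 5 were higher and 6 lower. Highest of those called were PDP1 (2.2), a phosphatase that activates pyruvate dehydrogenase, PGM1 (2.14) of glycogen metabolism and the gluconeogenic FBP1 (1.49). The lowest of those called were MPC2 (-2.47), a subunit of the mitochondrial pyruvate carrier, DLAT (-1.11) of pyruvate dehydrogenase and TIGAR (-1.02), a phosphatase that restrains glycolysis. The medians of the 3 lists were -0.01, -0.02 and -0.01 (log2), close to the -0.03 of all named genes.

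Within each pair, the array titled miR-410 was set against the array titled miR-CON, without a test. In this order the sign for the pair titled PC3 is opposite to that of its genotype field, and for both pairs opposite to the direction of the study's table of leading genes, which also gives each pair under the other line's name. In the pair titled PC3, 2 of the 37 members were at least 2-fold higher and 0 were 2-fold lower, where 0.441% of all named genes were 2-fold higher and 0.656% 2-fold lower. At 1.5-fold, 5 members were higher (2.92% of all genes) and 0 lower (3.62%). No member of the pair titled C42B was 2-fold higher (1.35% of all genes) or 2-fold lower (2.26%). At 1.5-fold in this pair, 3 members were higher (6.80% of all genes) and 1 lower (7.25%).

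LOX and PLOD2 had the widest differences among the members in the pair titled PC3, where PLOD1 differed by -0.13. From the levels above, LOX was 3.74-fold higher on the array titled PC3 miR-410 (difference 1.90), and 0.0848% of all named genes were at least as high. PLOD2 was 2.75-fold higher (1.46, 0.124% of genes). The same genes differed by -0.28 and 0.15 in the pair titled C42B. EPAS1 was 1.78-fold higher (0.83), P4HA1 1.60-fold (0.68) and ALDOC 1.58-fold (0.66) in the pair titled PC3, which left 1 glycolysis member and 4 other hypoxia members past 1.5-fold there. These 3 genes differed by 0.38, 0.41 and 0.10 in the pair titled C42B, on the same side of 0.

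In the pair titled C42B, VEGFA stood 1.99-fold higher on the array titled miR-410 (difference 0.99), just under 2-fold, and 1.37% of all named genes were at least as high. HK1 was 1.74-fold higher (0.80, 2.89% of genes) and PDK1 1.54-fold (0.62, 5.87% of genes), while MXI1 was 1.61-fold lower (-0.69). These genes differed by -0.14, -0.23, 0.26 and 0.13 in the pair titled PC3. Of the 37 members 0 were past 1.5-fold in both pairs, where 1.44% of all named genes were. KDM3A (0.58) and PLOD1 (0.57) came next below that fold.

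**Figure D3:**
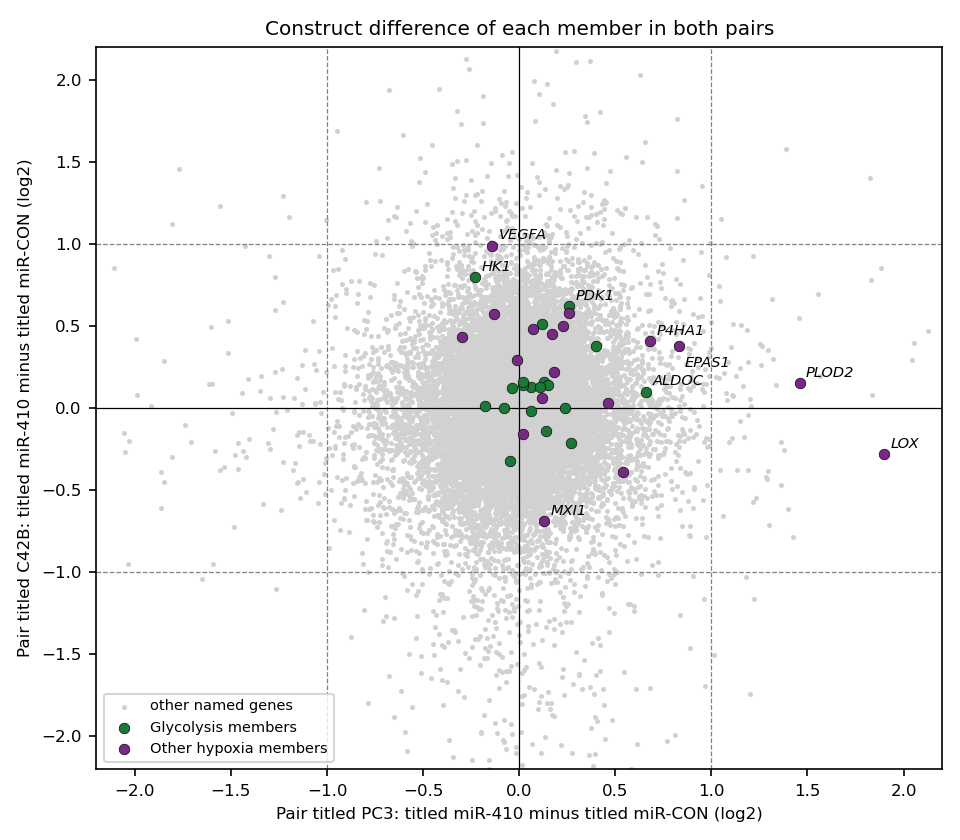
Difference titled miR-410 minus titled miR-CON of each member in the pair titled PC3 (x axis, log2) against the pair titled C42B (y axis, log2), over all other named genes in grey, with members past 1.5-fold in a pair named, dashed lines at 2-fold and genes beyond the axes not drawn. LOX (1.90) and PLOD2 (1.46) stand to the right of the 2-fold line, and VEGFA (0.99) just under it at the top.

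Smaller differences leaned to the side of the array titled miR-410. In the pair titled PC3, 28 of 37 members (75.7%) were above 0, and in the pair titled C42B 29 (78.4%), against 48.9% and 50.9% of all named genes. The glycolysis members were above 0 in 14 and 15 of 19 cases and the other hypoxia members in 14 and 14 of 18. Medians of the glycolysis members were 0.11 and 0.13 (log2), and of the other hypoxia members 0.17 and 0.33, where all named genes had medians of -0.01 and 0.01. The median absolute difference of all members was 0.15 and 0.22, against 0.16 and 0.24 for all named genes. For the glycolysis members alone it was 0.13 and 0.14, and for the other hypoxia members 0.2 and 0.4. After a trend of the difference on intensity was subtracted, the median of the glycolysis members in the pair titled C42B was 0.03.

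Across the pairs, 21 of the 37 members (56.8%) were above 0 in both, 1 was below 0 in both and 15 had opposite signs, while 26.4% of all named genes were above 0 in both. With the construct of the genotype field the pair titled PC3 turns its sign, so the pairs would then lie on opposite sides for those 21. By the direction of the study's table of leading genes both pairs turn, and those 21 would be below 0 in both. PGK1 (0.40 and 0.38) and P4HA1 (0.68 and 0.41) were among those with like values in the pairs. The widest gaps between the pairs, C42B minus PC3, were those of LOX (-2.18), PLOD2 (-1.31), VEGFA (1.13) and HK1 (1.03), followed by EGLN3 (-0.93), which was 0.54 in one pair and -0.39 in the other. With 1 array per combination these gaps were not tested.

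**Figure D4:**
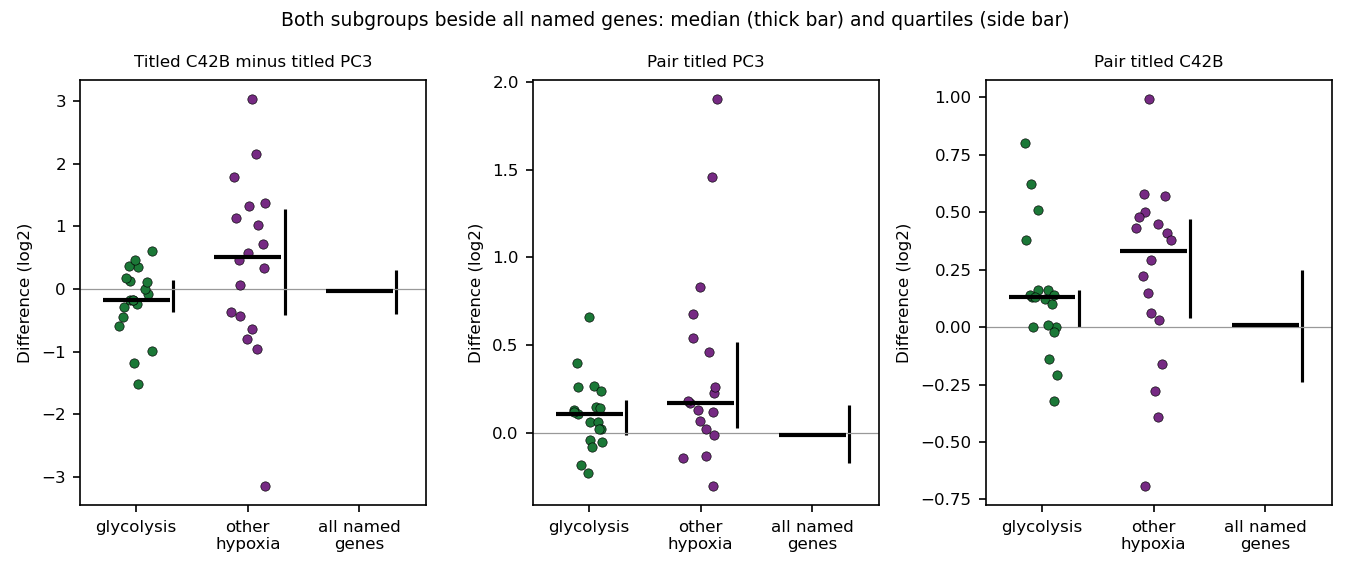
Differences (y axis, log2) of glycolysis members and other hypoxia members in 3 comparisons, 1 point per gene, with the median as a thick bar and the quartiles as a side bar, beside the median and quartiles of all named genes. Between lines the medians are -0.17 and 0.52, and within both pairs the medians of the members lie above 0 (0.11 to 0.33); each panel has its own scale.

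Among the further lists, 0 of the 11 measured genes of the HIF machinery passed 2-fold within a pair. Of the 28 measured further hypoxia targets and the 28 measured further glycolysis and pyruvate genes together, 7 did. Of all named genes, 0.441% were 2-fold higher and 0.656% lower in the pair titled PC3. In the pair titled C42B these shares were 1.35% and 2.26%. IGFBP3, a hypoxia-inducible binder of insulin-like growth factors, had levels of 9.86 (miR-CON) and 5.22 (miR-410) in the pair titled PC3 (difference -4.63), the single one in that pair. In the pair titled C42B, DDIT4, an inhibitor of mTOR signalling, was higher (7.69 and 8.88, difference 1.18), as was SLC16A7, a monocarboxylate transporter (6.59 and 8.0, difference 1.41). Lower there were CXCR4 (7.89 and 5.37, -2.52), the chemokine receptor, STC2 (8.97 and 7.27, -1.70), the endothelin gene EDN1 (7.12 and 5.86, -1.26) and FBP1 (7.08 and 5.86, -1.23). The median of the further hypoxia targets was 0.21 in the pair titled PC3 and 0.07 in the pair titled C42B, and that of the further glycolysis and pyruvate genes 0.05 and -0.03.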

How the data were processed

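RNA of PC3 and C42B cells with a stable miR-410 or scrambled construct was hybridised to 4 Clariom S arrays. The authors used RMA within Partek on the scanner files, and the deposited table holds log2 values. The submitters' processing notes name the same tools. Because the deposited values are already summarised, background, scan batches and saturation were not examined here, and precision is limited by the number of arrays. RMA compresses differences of dim probe sets.

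Of 21448 probe sets 17709 had 1 gene symbol in the platform's annotation, 0 had several and 3739 were not listed. Probe sets of a gene were averaged (20 genes, 0 members), which gave 17687 genes. Arrays were grouped by title. Lines were compared with limma 3.58.1 (lmFit and eBayes, no construct term) in R 4.3.3, with Benjamini-Hochberg adjustment over all named genes at 0.05. The code was also run on simulated data without a difference between constructs, so that run does not check the p-values of these arrays. Within a pair, genes were counted at 2-fold without a test, with 1.5-fold and 3-fold as alternatives. Other settings were the construct as a term, an intensity trend, dim genes left out, other scalings (median, quantile, loess with span 0.4), probe sets in place of genes and each array left out.

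Every measured member could be named. Of the further lists, the 3 highest and 3 lowest among those called and those past 2-fold in a pair were named. Members and lists were chosen with earlier results of these data known. Promoter windows and the miRNA came from RefSeq tables (GRCh38.p14). Protein sequences were not used here. Scripts ran in Python 3.11.15 with pandas 2.3.3, NumPy 2.4.6, statsmodels 0.14.6 (loess) and SciPy 1.17.1, and plots were drawn with Matplotlib 3.10.9.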

Additional observations from a re-analysis of the deposited data

Results flagged for a closer look

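In 4 members the construct difference, titled miR-410 minus titled miR-CON (log2), was past 1.5-fold in 1 pair and of opposite sign in the other. These were 4 of the 9 members past 1.5-fold in a pair (44.4%), and of all named genes past it 45.1% had opposite signs, so the share of the members was near the background. LOX was at 1.90 in the pair titled PC3 and at -0.28 in the pair titled C42B. VEGFA was at -0.14 and 0.99, HK1 at -0.23 and 0.80, and MXI1 at 0.13 and -0.69, in the same order. With 1 array per condition the difference between the pairs was not tested, and by the genotype field the values of the pair titled PC3 have the opposite sign.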

How the results depend on the processing

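Of the 14 members called between lines, PFKM, ALDOC, EGLN3, ADM, NDRG1, P4HA2 and EPAS1 were called in all 12 other settings of the test. The counts of 7 higher and 7 lower members ranged from 4 to 10 and from 3 to 7 when 1 array was left out, and with a minimum of 2-fold 3 lower members were left. The difference between lines ranged across 0, when 1 array was left out, for PFKP (-0.17 to 0.02), GAPDH (-0.03 to 0.03), PDK1 (-0.49 to 0.13), PFKFB3 (-0.09 to 0.42), BNIP3L (-0.08 to 0.21), VEGFA (-0.16 to 0.84) and LOX (-1.60 to 0.31), none of them called with all 4 arrays. Over all named genes the calls went from 2078 higher and 2488 lower to 1240 and 1186 without the array titled PC3 miR-CON, and to 1189 and 1071 without PC3 miR-410. GAPDH was at -0.02 after the median difference was subtracted and at -0.12 after a further quantile normalisation. The 2 members 2-fold higher in the pair titled PC3 became 5 at 1.5-fold and 1 at 3-fold. By the genotype field 0 members were 2-fold higher and 2 were lower there, LOX at -1.90 and PLOD2 at -1.46, and the medians of glycolysis and other hypoxia members were -0.11 and -0.17. In the pair titled C42B, 0 became 3 higher and 1 lower at 1.5-fold. With a loess trend subtracted, the glycolysis median was 0.03 in that pair and -0.02 between lines, and the hypoxia median between lines was 0.66. The cause was not tested. All 12 settings of the test reuse these 4 arrays and are not independent checks. As 0 members had several probe sets, the settings on probe sets left the member values unchanged. Leaving out dim genes left the differences of the members unchanged, but it moved adjusted p-values and some subgroup medians. The median of the other hypoxia members in the pair titled C42B went from 0.33 to 0.41.

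The titles carry no replicate numbers, so arrays were paired across lines by construct alone. With the construct as a term, by title, TPI1 was lost (adjusted p = 0.0727), and by the genotype field TPI1 (adjusted p = 0.0941) and EGLN1 (adjusted p = 0.0561) were. With 1 array for each line and construct, array and condition cannot be told apart, and 2 arrays per line leave the test few degrees of freedom. Signal over background was not examined, so the lowest levels, such as EGLN3 on the arrays titled C42B, have no detection limit beside them. The sign of neither pair is settled. For the pair titled PC3, the genotype field and the study's table both run against the title. For the pair titled C42B, title and genotype field name the same construct, and only the study's table runs against them.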
